A study of Homo sapiens with 24 samples.

Results

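The replication-dependent histone genes were taken from the count table by symbol: the linker histones H1-1 to H1-5 and every gene named H2AC, H2BC, H3C or H4C with a number. The rule used no measured value and found 65 genes among the 60232 identifiers of the table: 5 of class H1, 15 of H2A, 18 of H2B, 12 of H3 and 15 of H4. Of these, 54 lie in the large cluster on chromosome 6 (52 of them placed between 25726132 and 27893843 in GENCODE 29, GRCh38, which is a span of 2.17 Mb), 8 at 1q21 (chromosome 1, 149782689 to 149887916) and 2 at 1q42 (H2AC25 and H2BC26), and H4C16 lies alone on chromosome 12. The minimum-count filter passed 45 of the 65 genes to the tests, and the other 20 are given as counts.

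Transcripts were counted in 22Rv1, an established cell line from a human prostate carcinoma. The groups were KB05 at 200 µM, KB02 at 200 µM and the vehicle DMSO, with 3 libraries each and 3 h as the labelled time. Per the series design text, cells met either compound for 1 h and then spent 2 h in fresh medium, in biological triplicate. KB05 and KB02 are compounds given by code name. All 9 libraries come from the same cell line, so the p-values cover the spread between its cultures only.

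Replication-dependent histone genes supply the bulk of histone protein when DNA is copied, and their transcription rises in S phase. H2A, H2B, H3 and H4 form the nucleosome core, and H1 binds the linker DNA between nucleosomes. Their mRNAs normally end at a conserved stem-loop with no poly(A) tail, a form made by the U7 small nuclear ribonucleoprotein and the stem-loop binding protein SLBP. Some of these genes also give longer, polyadenylated transcripts that run past the stem-loop.

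The stem-loop letters show what the mRNAs share, and they are given for 7 genes on which the comparisons below turn. Each line has 26 bases of the gene's GENCODE 29 transcript (GRCh38), 5′ to 3′ in the sense of the mRNA, with the stem-loop in capitals.
H3C14 (minus strand, chr1:149840687-149840712): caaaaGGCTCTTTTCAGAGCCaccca
H4C5 (plus strand, chr6:26204996-26205021): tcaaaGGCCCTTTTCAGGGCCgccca
H4C8 (minus strand, chr6:26285126-26285151): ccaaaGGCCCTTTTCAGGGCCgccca
H4C16 (minus strand, chr12:14770719-14770744): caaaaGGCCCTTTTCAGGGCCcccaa
H2BC8 (minus strand, chr6:26216213-26216238): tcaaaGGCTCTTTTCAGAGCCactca
H2AC25 (minus strand, chr1:228457364-228457389): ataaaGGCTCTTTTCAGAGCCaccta
H2BC21 (minus strand, chr1:149886183-149886208): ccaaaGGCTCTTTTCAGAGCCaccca
The pattern searched was GGCNCTTTTCAGNGCC on the transcript strand. It was found in the models of 20 of the 63 histone genes that GENCODE 29 places (31.7%), and in 25 of 19947 protein-coding genes (0.125%). All 5 H4 genes with a match carried the form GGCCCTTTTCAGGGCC, and all 8 H2B genes, both H3 genes and 4 of the 5 H2A genes carried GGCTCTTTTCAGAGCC. The models of 30 histone genes end at the coding part, so they hold no stretch in which the letters could have been found.

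The bases upstream of the starts are shown for the most changed gene of H3 and of H2B, for the back-to-back pair H2AC25 and H2BC26 at 1q42, for H1-2, which moved in opposite directions with the compounds, and for the lone H4 gene on chromosome 12. Each line is the 150 bases before a RefSeq start (GRCh38.p14), 5′ to 3′ in the direction of transcription. Capitals mark matches, on either strand, to the TATA box (letters TATAAA), the box CCAAT and the octamer ATTTGCAT.
H3C14 (minus strand, chr1:149841209-149841358): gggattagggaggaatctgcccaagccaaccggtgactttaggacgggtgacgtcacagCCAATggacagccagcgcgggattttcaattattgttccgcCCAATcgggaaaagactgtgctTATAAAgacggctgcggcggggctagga
H2BC8 (minus strand, chr6:26216689-26216838): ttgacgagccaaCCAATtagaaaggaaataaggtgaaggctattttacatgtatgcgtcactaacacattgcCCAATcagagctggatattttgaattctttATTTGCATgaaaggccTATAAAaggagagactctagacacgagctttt
H2AC25 (minus strand, chr1:228457874-228458023): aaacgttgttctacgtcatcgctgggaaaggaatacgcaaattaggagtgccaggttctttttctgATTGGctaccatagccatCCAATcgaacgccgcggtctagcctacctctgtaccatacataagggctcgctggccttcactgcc
H2BC26 (plus strand, chr1:228457953-228458102): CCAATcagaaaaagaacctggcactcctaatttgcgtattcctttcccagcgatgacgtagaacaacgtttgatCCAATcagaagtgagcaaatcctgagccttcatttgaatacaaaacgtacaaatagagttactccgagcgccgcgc
H1-2 (minus strand, chr6:26056471-26056620): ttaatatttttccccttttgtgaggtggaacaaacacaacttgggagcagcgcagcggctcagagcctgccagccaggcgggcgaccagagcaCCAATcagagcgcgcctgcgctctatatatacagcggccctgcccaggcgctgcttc
H4C16 (minus strand, chr12:14771132-14771281): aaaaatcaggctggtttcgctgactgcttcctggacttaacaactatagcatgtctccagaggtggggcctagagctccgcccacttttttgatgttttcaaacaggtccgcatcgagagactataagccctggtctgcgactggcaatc
The RefSeq table held 64 such windows for 60 of the histone genes. The TATA box letters stood in 54.7% of them against 6.71% of all 35116 windows. CCAAT stood in 84.4% against 23.5%: it was in every window of H1, H2A, H2B and H3 genes and in 3 of the 13 windows of H4 genes. The octamer, to which the transcription factor POU2F1 is known to bind, stood in 32.8% against 0.988%, with 15 of the 21 matches in H2B windows. No matches of different motifs overlapped in these windows. A match is a description of the letters and not a measured site.

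Most histone genes tested were called higher with KB05 than with DMSO. With KB02 the share called in either direction was no larger than among all genes, although the share called at least 2-fold higher was. With KB05, 36 of the 45 genes tested were called higher at an adjusted p under 0.05 by edgeR's quasi-likelihood test, where the share of all 18379 genes tested that was called higher was 18.7%. The median log2 fold change of the 45 was 1.68, against -0.00 over all genes tested, and 33 of them were called at least 2-fold higher, a threshold passed by 4.97% of all genes (2.7% were called at least 2-fold lower). None was called lower (21.1% of all genes were): the fold change was above 0 for all 45, so the count lower was 0 at an unadjusted p under 0.05 and 0 in DESeq2 as well. For 38 of the 45 the lowest KB05 library stood above the highest DMSO library, which was so for 23.7% of all genes. Some of the 45, H1-4, H2AC7, H2BC7, H3C2 and H4C2 among them, passed the minimum-count filter only through their KB05 libraries. Such genes were tested because they were high with KB05, so they add no independent support to the counts for KB05 against DMSO or KB02.

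With KB02, 11 of the 45 genes were called higher than with DMSO and 3 lower, beside 22.8% of all genes higher and 23.3% lower, so the share of histone genes called (14 of 45) did not exceed the background of 46.1% called in either direction. The median log2 fold change was 0.11. At least 2-fold, 7 were called higher and 1 lower, beside 6.04% and 6.28% of all genes, and for 11 the KB02 libraries all lay above those of DMSO, beside 26.9% of all genes. Set directly against KB02, KB05 gave 36 genes called higher (background 21.8%) and 0 lower (background 18.2%; 0 also at an unadjusted p under 0.05 and in DESeq2), with a median of 1.38. Of these, 30 were called at least 2-fold higher (background 4.11%, and 5.23% lower), and the groups stood apart for 41 (27.6%). The comparisons with DMSO share the DMSO libraries, and the members' values in each are therefore given side by side and not correlated.

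Summed over all 65 genes, the level was 559, 548 and 534 CPM in the KB05 libraries, 268, 262 and 257 CPM in the KB02 libraries and 237, 239 and 248 CPM in the DMSO libraries (CPM, counts scaled to a common depth, with library sizes adjusted by TMM). The KB05 libraries lay far above the other 6, and those of KB02 just above those of DMSO. The mean was 547 ± 12.8 CPM with KB05, 262 ± 5.28 with KB02 and 241 ± 5.95 with DMSO (SD, n = 3 each), so the KB05 sum was 2.27 times and the KB02 sum 1.09 times that of DMSO. Without H2AC25 these ratios were 2.75 and 1.04, and the KB02 and DMSO libraries overlapped. As a share of all counts the genes made up 0.0534% with KB05, 0.0277% with KB02 and 0.0233% with DMSO. These are bulk libraries, in which more cells that make histone mRNA and more histone mRNA per cell cannot be told apart.

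**Figure D1:**
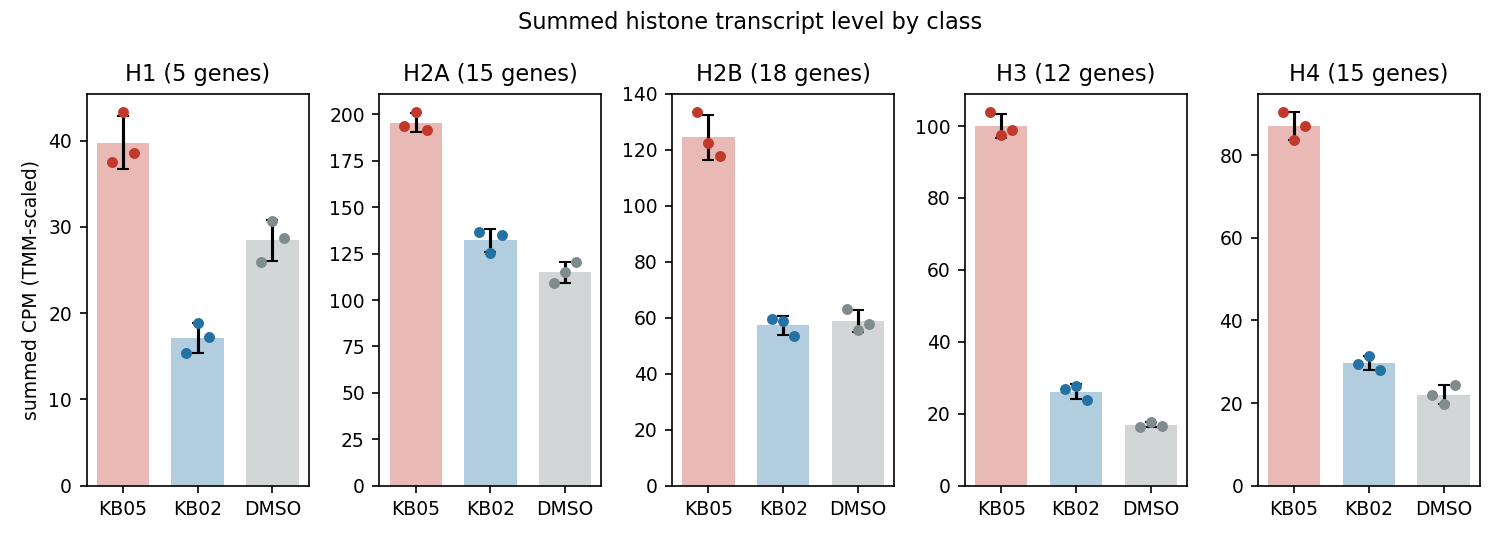
Summed level of each histone class (vertical axis, TMM-scaled CPM, starting at 0) in the KB05, KB02 and DMSO groups. Bars are means of 3 libraries, error bars are SD and points are libraries. In every class the 3 KB05 libraries lie above the 3 DMSO libraries, and in H1 the 3 KB02 libraries lie below those of DMSO.

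The classes differed in how far their sums moved, as a description with no test. For H3, whose variants carry many of the regulatory marks on chromatin, the sum was 104, 97.4 and 98.8 CPM with KB05, 26.9, 27.7 and 23.7 CPM with KB02 and 16.4, 17.7 and 16.7 CPM with DMSO. That is 5.91 times the DMSO mean for KB05 and 1.54 times for KB02, the largest ratios among the 5 classes. H4 followed with 87.1 ± 3.31 CPM with KB05, 29.7 ± 1.67 with KB02 and 22.1 ± 2.29 with DMSO, ratios of 3.95 and 1.35.

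For H2B the sum was 125 ± 8.12 CPM with KB05, 57.3 ± 3.40 with KB02 and 58.8 ± 4.01 with DMSO, a ratio of 2.12 for KB05, while the KB02 and DMSO libraries overlapped. H2A had 196 ± 5.05 CPM with KB05, 132 ± 6.16 with KB02 and 115 ± 5.69 with DMSO, ratios of 1.70 and 1.15. H1 was the class in which the compounds stood on opposite sides of the vehicle: 39.8 ± 3.11 CPM with KB05, 17.1 ± 1.76 with KB02 and 28.5 ± 2.38 with DMSO, ratios of 1.40 and 0.602.

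A sum is set by its most abundant genes, and the order of the classes rests on them. Without H3C14 the KB05 ratio of H3 was 3.11. Without H2AC25 that of H2A was 2.62, without H2BC12 and H2BC21 that of H2B was 4.20, and without H1-2 that of H1 was 4.69. Without H1-2 the KB02 ratio of H1 also turned, to 1.79 in place of 0.602, with KB02 and DMSO libraries that overlapped. Gene by gene, the median log2 fold change with KB05 was 1.95 for H3, 1.94 for H2B, 1.54 for H4, 1.49 for H1 and 1.27 for H2A, and the classes overlapped widely. The number called higher with KB05 was 7 of 7 tested in H3, 10 of 13 in H2B, 9 of 12 in H4, 3 of 3 in H1 and 7 of 10 in H2A. Of all genes tested, 18.7% were called higher with KB05. The class counts and medians include genes, such as H1-4 and H3C2, that passed the minimum-count filter only through their KB05 libraries.

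**Figure D2:**
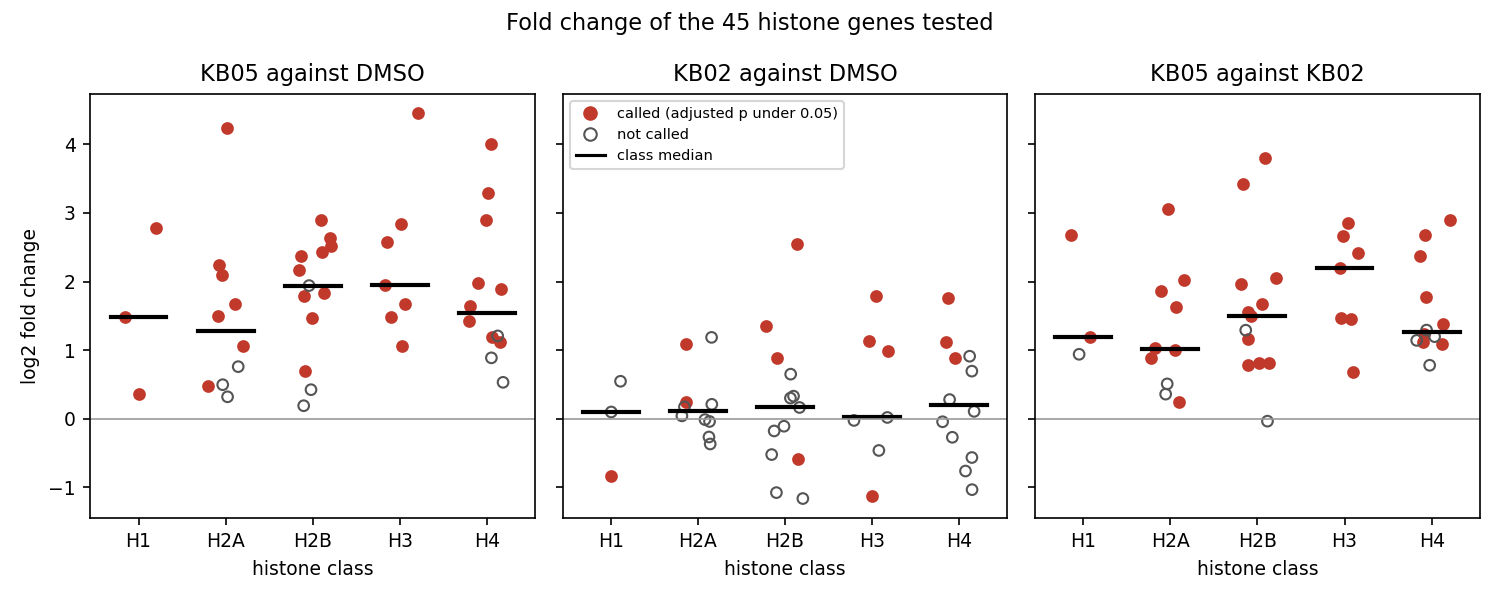
Log2 fold change (vertical axis) of the 45 histone genes tested, by class (horizontal axis), for KB05 against DMSO, KB02 against DMSO and KB05 against KB02. Filled points passed an adjusted p of 0.05, open points did not, and lines are class medians. All points of KB05 against DMSO lie above 0, and those of KB02 against DMSO lie on both sides of it.

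Among H3 genes, H3C14 at 1q21 had the largest fold change of all histone genes against DMSO with KB05. It had 54.5, 54.9 and 56.0 CPM in the KB05 libraries, 9.14, 8.65 and 8.26 CPM in those of KB02, and 2.12, 3.20 and 2.13 CPM in those of DMSO. The 3 groups did not overlap, and the replicates lay close together. The log2 fold change was 4.46 ± 0.13 (SE) for KB05 (edgeR adjusted p = 1.17e-22) and 1.80 ± 0.14 for KB02 (4.37e-12), and KB05 exceeded KB02 by 2.66 ± 0.11 (1.9e-18). By level per kilobase of exon H3C14 was in place 21 among the histone genes with DMSO (1.50 CPM per kb) and in place 4 with KB05 (33.3 CPM per kb). H3C14 (ENSG00000203811.1, chromosome 1, 149839538 to 149841193, minus strand) overlaps H4C14 by 230 bases on the other strand, and no source used here says whether the libraries kept strand. H3C13, which encodes the same protein, also rose with both compounds, by 2.58 ± 0.35 with KB05 and 1.13 ± 0.37 with KB02 on the log2 scale.

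By level per kilobase, H3C10 was highest of the H3 genes with a GENCODE 29 model with DMSO, and H3C14 exceeded it with KB05. H3C10 had 23.7, 22.2 and 22.6 CPM with KB05, 7.50, 9.68 and 7.54 CPM with KB02 and 8.20, 8.36 and 7.84 CPM with DMSO. Its KB05 libraries stood above the other 6, which overlapped. The log2 fold change was 1.49 ± 0.12 with KB05 (edgeR adjusted p = 3.29e-11) and 0.02 ± 0.13 with KB02 (0.918), and the direct difference was 1.47 ± 0.12 (2.15e-11). H3C1 had 1.72, 1.50 and 1.78 CPM with KB05, 0.431, 0.360 and 0.277 CPM with KB02 and 1.01, 0.878 and 0.486 CPM with DMSO. It was called higher with KB05 (1.06 ± 0.39, adjusted p = 0.0296) and lower with KB02 (-1.13 ± 0.45, adjusted p = 0.0386), but these calls at a low level were lost in 6 and 8 of the alternative settings. H3C2 had 2.45, 1.56 and 2.30 CPM with KB05, 0.345, 0.135 and 0.388 CPM with KB02 and 0.476, 0.258 and 0.122 CPM with DMSO, and its 2.86 ± 0.47 between the compounds (edgeR adjusted p = 9.89e-06) was the largest such difference among H3 genes. H3C2 passed the minimum-count filter only through its KB05 libraries, and its KB02 libraries held 8, 3 and 7 counts. Its call and its rank therefore add no independent support.

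Among H4 genes, 14 of the 15 encode the same protein, and H4C5 rose most. It had 11.9, 9.04 and 10.1 CPM with KB05, 1.59, 1.53 and 0.998 CPM with KB02 and 0.741, 0.568 and 0.608 CPM with DMSO. No groups overlapped, and KB02 lay between the others. The log2 fold change was 4.01 ± 0.24 with KB05 (edgeR adjusted p = 3.81e-14) and 1.11 ± 0.29 with KB02 (0.00195), and the compounds differed by 2.89 ± 0.21 (2.27e-12). H4C16, the gene on chromosome 12, had 3.39, 2.60 and 2.30 CPM with KB05, 1.25, 1.17 and 1.39 CPM with KB02 and 0.423, 0.207 and 0.486 CPM with DMSO. It had the largest rise of an H4 gene with KB02, 1.77 ± 0.39 (edgeR adjusted p = 0.000374), and rose by 2.89 ± 0.37 with KB05.

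H4C14 and H4C15 at 1q21 had the most counts of the H4 genes over all 9 libraries, although H4C15 and H4C8 lay close together in CPM per kb with KB02 (2.38 and 2.33) and with DMSO (1.27 and 1.26). They have the same coding sequence, and the estimated counts were divided between them unevenly from library to library. H4C14 was listed at 33.5, 18.3 and 26.6 CPM with KB05, 6.81, 17.6 and 11.2 CPM with KB02 and 8.10, 9.76 and 11.6 CPM with DMSO. H4C15 was listed at 16.5, 30.0 and 26.4 CPM with KB05, 9.05, 1.08 and 3.66 CPM with KB02 and 4.02, 1.91 and 1.40 CPM with DMSO. Singly, both were called higher with KB05 (H4C14 by 1.42 ± 0.40 and H4C15 by 3.29 ± 0.74), calls lost in 7 and 1 of the alternatives, but the sum of the pair was steady: 49.9, 48.3 and 52.9 CPM with KB05, 15.9, 18.6 and 14.9 CPM with KB02 and 12.1, 11.7 and 12.9 CPM with DMSO. Tested as a single gene in the same fit, the pair rose by 2.04 ± 0.10 on the log2 scale with KB05 (edgeR adjusted p = 8.19e-17) and by 0.43 ± 0.10 with KB02 (0.000717). H4C11 and H4C12 on chromosome 6, also with the same coding sequence, were not called singly in any comparison. Their sum was 5.40 ± 1.07 CPM with KB05, 2.95 ± 0.605 with KB02 and 3.12 ± 0.829 with DMSO, and rose by 0.80 ± 0.22 with KB05 (edgeR adjusted p = 0.00428).

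**Figure D3:**
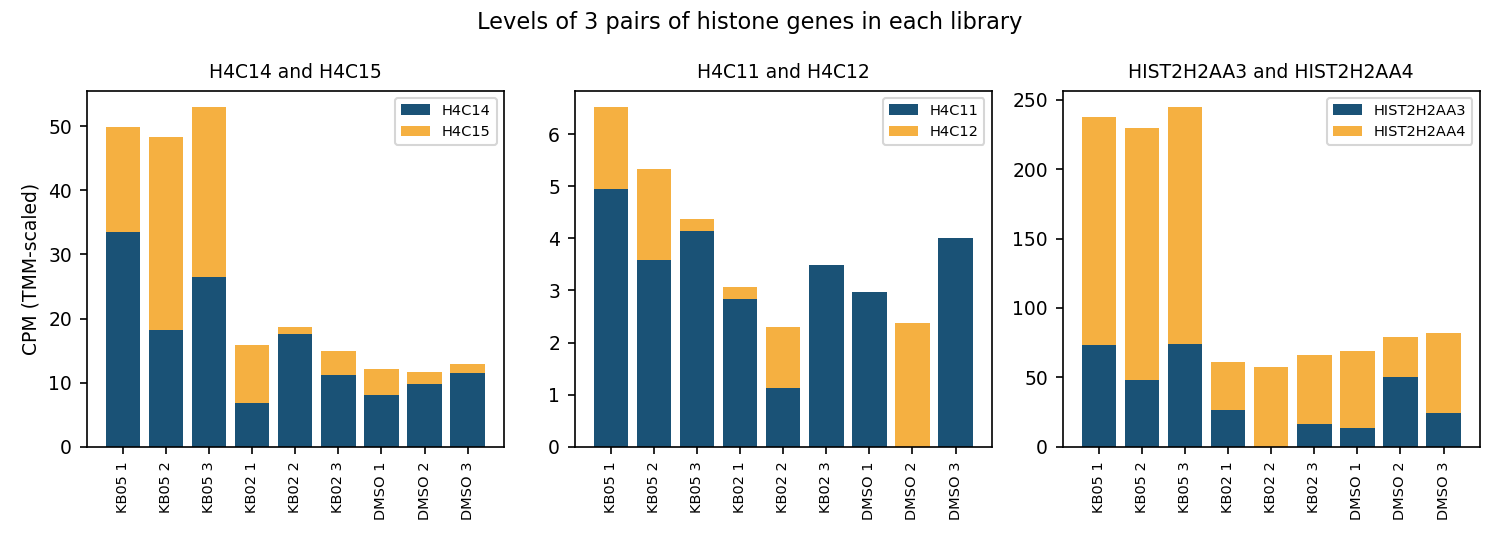
Level of 3 pairs of histone genes with the same coding sequence in each library (vertical axis, TMM-scaled CPM), stacked so that the height of a bar is the sum of the pair. The split between H4C14 and H4C15, H4C11 and H4C12, and HIST2H2AA3 and HIST2H2AA4 varies between replicates, while the sums of the 3 KB05 libraries lie above those of the other 6 in each pair.

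Among H2A genes, H2AC25 at 1q42 was the most abundant histone gene of the list in every group, and its fold change was small. It had 116, 123 and 122 CPM with KB05, 106, 95.3 and 104 CPM with KB02 and 80.2, 86.5 and 92.0 CPM with DMSO. The groups stood apart in that order. Its log2 fold change was 0.48 ± 0.07 with KB05 (edgeR adjusted p = 2.53e-06) and 0.24 ± 0.07 with KB02 (0.00621). KB05 exceeded KB02 by 0.24 ± 0.07 (0.00668), a call lost when libraries were scaled by size only and without the second KB02 library. H2AC6 had 39.1, 39.8 and 34.4 CPM with KB05, 12.2, 13.2 and 10.97 CPM with KB02 and 12.8, 12.4 and 10.1 CPM with DMSO, and rose with KB05 by 1.68 ± 0.11 (edgeR adjusted p = 1.36e-13), while with KB02 the difference was 0.04 ± 0.11 (95% interval -0.19 to 0.27).

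H2AC7 had the largest fold change of an H2A gene, from a level near the floor: 1.88, 2.02 and 1.72 CPM with KB05, 0.259, 0.225 and 0.166 CPM with KB02 and 0, 0 and 0.304 CPM with DMSO. Its 4.24 ± 0.65 with KB05 (edgeR adjusted p = 4.68e-06) thus rests on 5 counts in a single DMSO library, and a count of 3, taken as the floor, is 0.129 to 0.195 CPM. It also lies wholly within a longer gene on its strand, ENSG00000282988, which rose by 2.43 with KB05 and also spans H3C4. H2AC17 had 2.45, 2.15 and 2.47 CPM with KB05, 1.59, 0.901 and 0.998 CPM with KB02 and 0.688, 0.413 and 0.547 CPM with DMSO. It had the largest called H2A rise with KB02, 1.08 ± 0.38 (edgeR adjusted p = 0.0183), a call lost in 3 alternatives.

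The largest H2A signal at 1q21 lay outside the rule. The identifiers ENSG00000203812.2 and ENSG00000272196.2 have no symbol in the name table, and GENCODE 29 names them HIST2H2AA3 and HIST2H2AA4, which have the same coding sequence of 390 bases. Their sum was 238, 230 and 245 CPM with KB05, 60.9, 57.6 and 65.8 CPM with KB02 and 69.0, 79.0 and 82.2 CPM with DMSO. KB05 was 3.09 times DMSO, and the KB02 libraries lay below those of DMSO at 0.800 times. When libraries were scaled by size only, the KB02 ratio was 0.878 and the KB02 and DMSO libraries overlapped. With this pair added, the H2A sum came to 433 CPM with KB05, 194 with KB02 and 192 with DMSO, and its KB05 ratio was 2.26 in place of 1.70.

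Among H2B genes, the most abundant ones rose less with KB05 than most of the others. H2BC12 had 37.5, 40.0 and 32.4 CPM with KB05, 21.2, 21.8 and 19.6 CPM with KB02 and 24.4, 21.2 and 21.9 CPM with DMSO, and rose with KB05 by 0.70 ± 0.09 (edgeR adjusted p = 5.19e-07). H2BC21 had 24.8, 22.9 and 24.7 CPM with KB05, 14.6, 14.1 and 13.4 CPM with KB02 and 23.4, 20.2 and 19.8 CPM with DMSO. It fell with KB02 by 0.59 ± 0.10 on the log2 scale (edgeR adjusted p = 1.1e-05) and differed from DMSO by 0.19 ± 0.10 with KB05 (0.123, 95% interval -0.01 to 0.39).

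Most of the less abundant H2B genes moved further with KB05. H2BC8 had 9.12, 6.24 and 7.24 CPM with KB05, 1.12, 0.540 and 0.388 CPM with KB02 and 0.794, 1.03 and 1.22 CPM with DMSO, a rise of 2.90 ± 0.28 with KB05 (edgeR adjusted p = 1.34e-09). H2BC7 had 2.14, 1.69 and 1.72 CPM with KB05, 0.0862, 0.135 and 0.166 CPM with KB02 and 0.318, 0.310 and 0.243 CPM with DMSO. Its KB02 libraries held at most 3 counts each, so the 3.80 ± 0.50 by which KB05 exceeded KB02 (edgeR adjusted p = 2.82e-07) was read at the floor. H2BC6 rose with both compounds: 0.782, 1.56 and 1.55 CPM with KB05, 2.03, 1.22 and 0.665 CPM with KB02 and 0.159, 0.258 and 0.243 CPM with DMSO. Its log2 fold change was 2.52 ± 0.52 with KB05 (edgeR adjusted p = 0.000232) and 2.55 ± 0.51 with KB02 (0.00011), and the compounds differed by -0.03 ± 0.40 (95% interval -0.86 to 0.79), which leaves room for a difference of either sign.

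Among H1 genes, H1-2 carried most of the class and moved in opposite directions. It had 33.1, 39.2 and 34.6 CPM with KB05, 13.4, 16.8 and 16.5 CPM with KB02 and 24.9, 29.6 and 28.2 CPM with DMSO. The 3 groups stood apart, with KB02 lowest. The log2 fold change was 0.37 ± 0.10 with KB05 (edgeR adjusted p = 0.00308) and -0.83 ± 0.10 with KB02 (4.81e-08), and KB05 exceeded KB02 by 1.20 ± 0.10 (4.93e-11). H1-4, a linker histone of lower level here, had 2.71, 2.47 and 2.41 CPM with KB05, 0.474, 0.450 and 0.222 CPM with KB02 and 0.265, 0.568 and 0.243 CPM with DMSO, and rose with KB05 by 2.78 ± 0.42 (edgeR adjusted p = 2.9e-06). H1-4 passed the minimum-count filter only through its KB05 libraries, so its call adds no independent support.

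**Figure D4:**
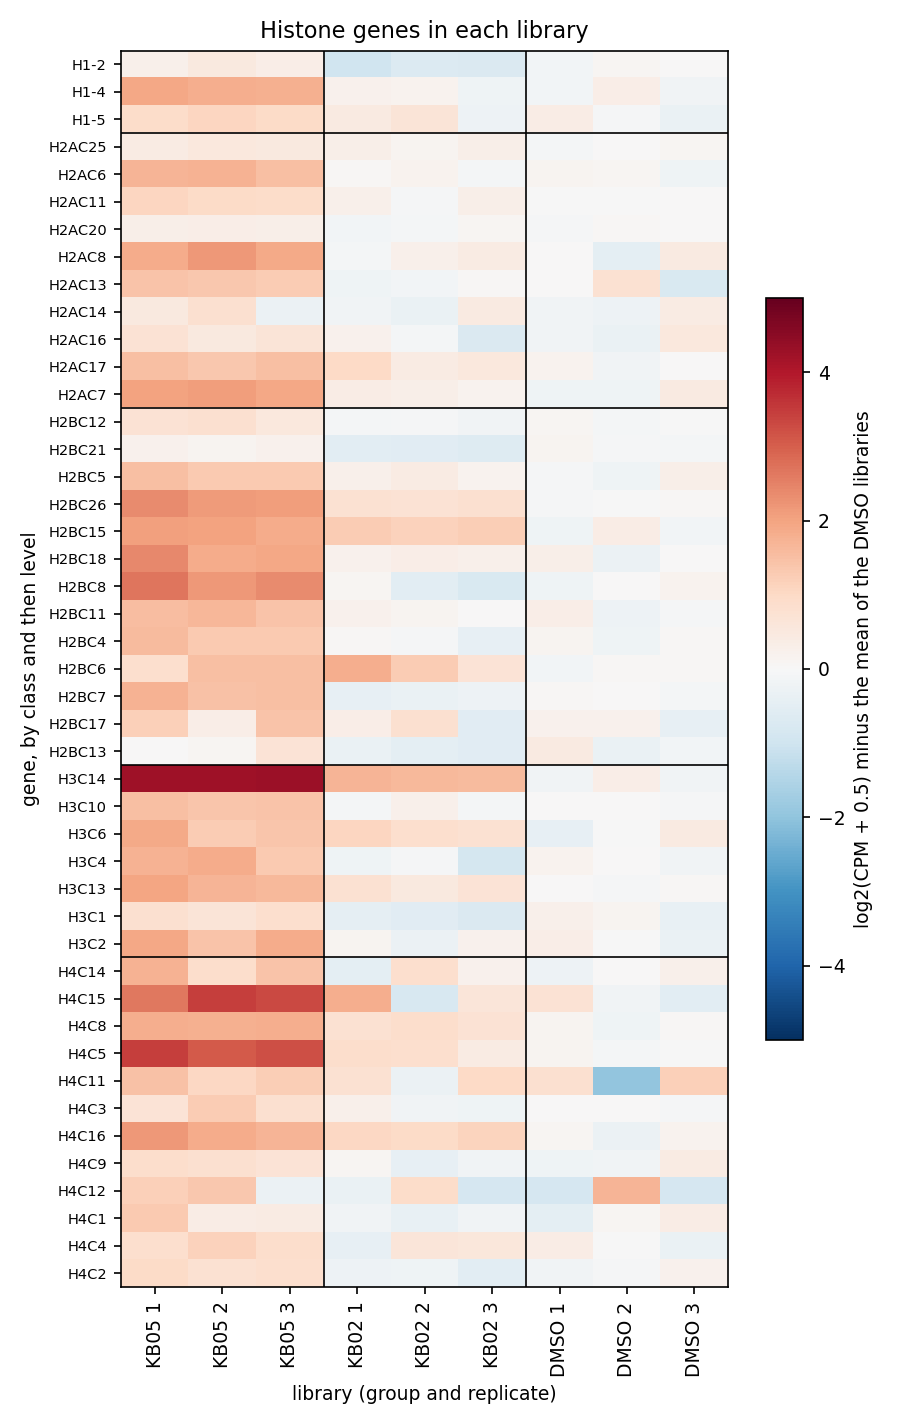
Level of the 45 histone genes tested (rows, by class and then by mean count) in each of the 9 libraries (columns), as log2(CPM + 0.5) minus the mean of the DMSO libraries. The KB05 columns are above 0 in nearly every row, and the KB02 columns are mixed: H3C14, H2BC15, H2BC26 and H4C16 are among the genes above 0 in all 3, and H1-2 and H2BC21 among those below 0 in all 3.

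Read gene by gene, 10 histone genes were called higher in all 3 comparisons: H2AC17, H2AC25, H2BC15, H2BC26, H3C6, H3C13, H3C14, H4C5, H4C8 and H4C16. A further 20 were called higher with KB05 against both DMSO and KB02 and not called with KB02. H1-5, H4C4 and H4C14 were called higher with KB05 against DMSO alone, and H2AC16, H2BC13 and H4C1 were called higher in KB05 against KB02 alone. H2BC6 was called higher with each compound against DMSO, H1-2 and H3C1 higher with KB05 and lower with KB02, and H2BC21 lower with KB02. H2AC14, H2AC20, H2BC17, H4C11 and H4C12 were not called in any comparison.

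Of the 20 genes below the filter, 6 had no count in any library and the others had at most 68 counts over the 9 libraries. The summed CPM was higher with KB05 than with DMSO for 12 of the 14 with counts. Some of these directions rest on very few counts, as in H1-1 with 1 count over the 9 libraries. No share over all genes below the filter is given beside the 12, so it adds no support to the counts for KB05. In H1-3 and H3C12 the KB02 libraries all lay above those of DMSO. H1-3 had 5, 0 and 0 counts in the KB05 libraries, 13, 13 and 3 in those of KB02 and 0 in each DMSO library. H3C12 had 4, 11 and 9 counts with KB05, 16, 10 and 5 with KB02 and 0, 0 and 1 with DMSO.

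By position, KB05 called 28 of the 35 genes tested on chromosome 6, 5 of 7 at 1q21, both at 1q42 and H4C16 on chromosome 12 higher than DMSO. The share called higher over all genes was 18.7%. The summed level of the chromosome 6 genes was 263 ± 14.9 CPM with KB05, 107 ± 5.19 with KB02 and 108 ± 1.67 with DMSO. At 1q21 it was 149 ± 4.53, 48.2 ± 2.07 and 43.9 ± 1.60 CPM for KB05, KB02 and DMSO, and at 1q42 it was 133 ± 2.63, 106 ± 5.72 and 88.6 ± 6.01 CPM in the same order. The ratio of KB05 to DMSO was thus 2.42 on chromosome 6, 3.38 at 1q21 and 1.50 at 1q42. This order rests on single genes: without H3C14 the ratio at 1q21 was 2.25, and H2BC26, the other gene at 1q42, had a ratio of 5.39 without H2AC25. The median log2 fold change per gene with KB05 was 1.67 on chromosome 6, 2.38 at 1q21 and 1.46 at 1q42. With KB02, 6 chromosome 6 genes were called higher and 2 lower, 2 higher and 1 lower at 1q21, and both higher at 1q42. Over all genes KB02 called 22.8% higher and 23.3% lower, shares that the chromosome 6 counts did not exceed.

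Genes that are not on the list but lie inside the clusters give the local background. Of 76 such genes in the chromosome 6 cluster, 25 were tested. KB05 called 6 of them higher and 6 lower and KB02 called 3 higher and 6 lower, with medians of -0.07 and -0.22. Shares over all genes tested were 18.7% higher and 21.1% lower with KB05 and 22.8% and 23.3% with KB02. The largest rises, ENSG00000283064 (2.77 with KB05 and 1.99 with KB02) and ENSG00000282988, overlap histone genes. At 1q21 the 5 other genes tested include HIST2H2AA3 and HIST2H2AA4 and the H2B pseudogenes H2BC19P and H2BC20P. KB05 called 3 of them higher, among them HIST2H2AA4 by 1.86 ± 0.30 (edgeR adjusted p = 0.00313) and H2BC19P by 0.93 ± 0.17.

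H2A and H2B genes often stand back to back and share the stretch between their starts. There were 11 such pairs with under 500 bases between the annotated starts, and both genes were tested in 8. In all 8 both fold changes with KB05 were above 0, and in 5 of them both genes were called higher. Of all genes tested, taken singly, 18.7% were called higher with KB05. In H2AC8 and H2BC8, 283 bases apart, the log2 fold changes with KB05 were 2.24 and 2.90, and in H2AC6 and H2BC4, 219 bases apart, 1.68 and 1.79. The partners could also differ: H2AC25 changed by 0.48 and H2BC26, 234 bases away, by 2.43. In H2AC20 and H2BC21 neither was called (0.32 and 0.19).

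The extent of the gene model went with the result, and its part was not tested. Of the 29 genes tested whose model reaches past the coding part, 26 were called higher with KB05 (median 1.79), and of the 15 whose model ends there, 9 were (median 1.21). Of the 14 genes tested with over 300 bases annotated beyond the stem-loop, 13 were called higher with KB05 and 8 with KB02, with medians of 2.27 and 0.61. Over all genes tested, 18.7% were called higher with KB05 and 22.8% with KB02. The 14 genes hold 8 of the 11 histone genes called higher with KB02. With KB05 the median log2 fold change was 1.92 in the 22 genes of lower DMSO level and 1.49 in the 23 of higher level, while with KB02 it was -0.03 and 0.17. The genes of lower level include some, such as H2AC7 and H2BC7, that passed the filter only through their KB05 libraries. The KB05 contrast is therefore partly set by the filter. Over the 45 genes, the Pearson correlation of the log2 level in DMSO with the log2 fold change was -0.48 for KB05 and -0.15 for KB02, values which share the DMSO libraries between their axes and are given with no test.

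Other RNAs that normally lack a long poly(A) tail also differed with KB05. Of the 10 tested from a list of such RNAs, 6 were called higher with KB05 (median 0.74), beside 18.7% of all genes. With KB02 none was called in either direction by edgeR, beside 46.1% of all genes. That count was also 0 in edgeR at an unadjusted p under 0.05, and DESeq2 called 0. The small nuclear RNA RNU1-1 had 2.34 ± 0.383 CPM with KB05, 0.286 ± 0.0917 with KB02 and 0.171 ± 0.115 with DMSO. RNU1-1 passed the minimum-count filter only through its KB05 libraries, and its DMSO mean lay at the floor. It therefore adds no independent support to the count for KB05. The mitochondrial ribosomal RNA MT-RNR1 rose by 0.87 ± 0.07 with KB05 (edgeR adjusted p = 9.03e-11), and mitochondrial ribosomal RNAs took 4.52% of counts with KB05, 3.79% with KB02 and 3.17% with DMSO. Mitochondrial mRNAs took 9.76% with KB05, 11.7% with KB02 and 14.6% with DMSO. No source used here says whether polyadenylated RNA was selected, and the part of such a shift in the histone result was not tested. Without the first DMSO library the count of 6 became 3.

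The replication-independent histone genes, most of which are expressed outside S phase and have polyadenylated mRNAs, did not follow. Of 12 tested, KB05 called 1 higher and 5 lower and KB02 called 4 lower, with medians of -0.22 and -0.09. Over all genes KB05 called 18.7% higher and 21.1% lower, and KB02 called 23.3% lower. H3-3A, which encodes the replacement histone H3 variant, had 371 ± 26.4 CPM with KB05, 623 ± 27.9 with KB02 and 603 ± 35.9 with DMSO, and fell with KB05 by 0.70 ± 0.07 on the log2 scale. H3-3B, which encodes the same protein, rose with KB05 by 0.29 ± 0.07. H2BW2 fell with KB05 by 1.45 ± 0.57, from a low level (0.293 CPM with KB05 and 0.841 with DMSO). With KB02 the largest called falls were of MACROH2A2, by 0.74 ± 0.10, and H2AZ1, by 0.59 ± 0.13.

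**Figure D5:**
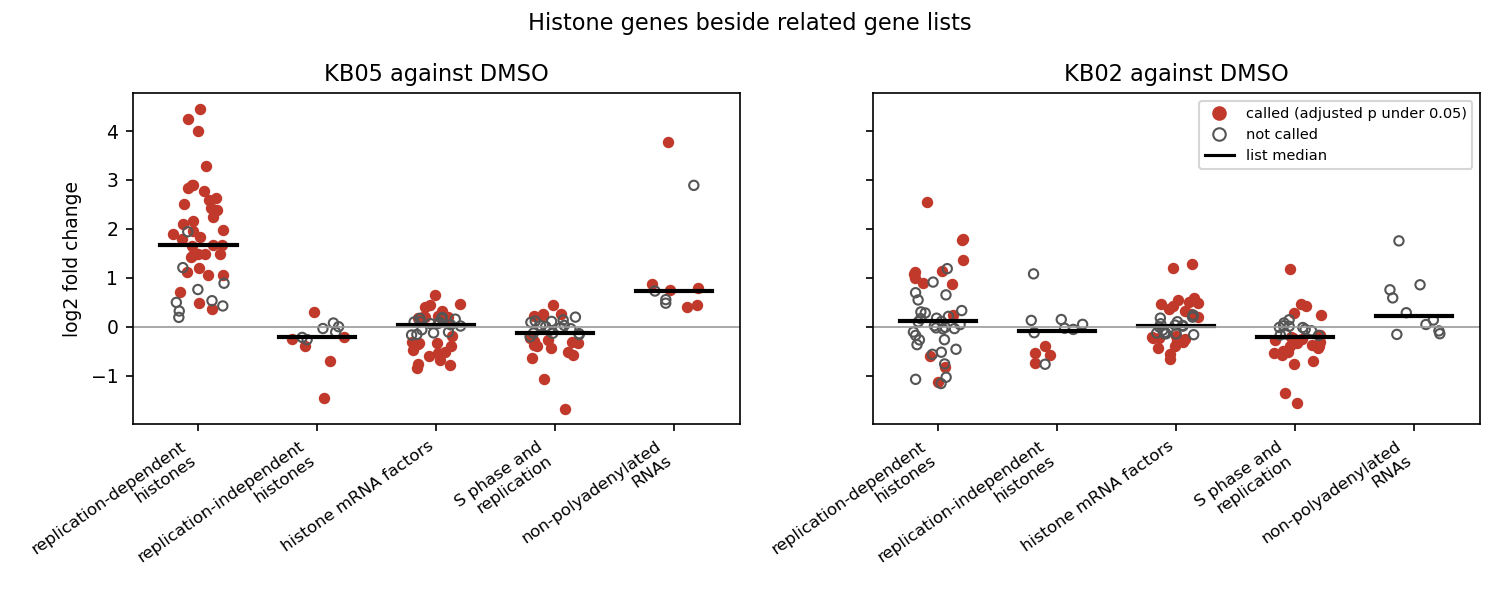
Log2 fold change (vertical axis) of the genes tested in the replication-dependent histone list and in 4 related lists, for KB05 against DMSO and KB02 against DMSO. Filled points passed an adjusted p of 0.05, open points did not, and lines are medians. With KB05 the replication-dependent histones have a median of 1.68 and the non-polyadenylated RNAs one of 0.74, while the other 3 medians lie between -0.22 and 0.03.

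Of 40 genes for histone mRNA transcription and processing, all tested, KB05 called 10 higher and 14 lower and KB02 called 13 higher and 11 lower, with medians of 0.03 and 0.02. The shares of all genes were 18.7% higher and 21.1% lower with KB05 and 22.8% and 23.3% with KB02. CASP8AP2, a component of the histone locus body, fell with KB05 by 0.78 ± 0.11, and TUT4, a uridylyltransferase, by 0.84 ± 0.12. With KB02, ZNF473, a zinc-finger protein of the U7-dependent cleavage, rose by 1.29 ± 0.08 and TUT7 by 1.20 ± 0.12. Named for their roles after their values were seen, NPAT, the coactivator of histone gene transcription, fell with KB05 by 0.60, and SLBP had 83.4 ± 2.37 CPM with KB05, 83.2 ± 9.71 with KB02 and 91.0 ± 14.4 with DMSO and was called in neither comparison with DMSO.

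Of 35 S phase and DNA replication genes, all tested, KB05 called 5 higher and 14 lower and KB02 called 5 higher and 19 lower, with medians of -0.13 and -0.22. Over all genes KB05 called 18.7% higher and 21.1% lower, and KB02 called 22.8% higher and 23.3% lower. CCNE2, which encodes a cyclin of S phase entry, had 5.14 ± 0.528 CPM with KB05, 6.41 ± 1.65 with KB02 and 16.5 ± 1.39 with DMSO, and fell by 1.68 ± 0.16 with KB05 and by 1.35 ± 0.15 with KB02. POLE, the catalytic subunit of a replicative DNA polymerase, fell by 1.07 ± 0.07 with KB05, and SLC29A1, a nucleoside transporter, by 1.55 ± 0.07 with KB02.

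Total counts ran from 15506975 to 21900548 per library. The 22Rv1 and luminal prostate markers were all tested (13 of 13): KB05 called 5 higher and 3 lower and KB02 called 3 higher and 8 lower. The shares of all genes were 18.7% higher and 21.1% lower with KB05 and 22.8% and 23.3% with KB02. The largest called changes were of TMPRSS2 (-0.81) and KLK2 (0.42) with KB05 and of EPCAM (-1.44) and TMPRSS2 (-1.34) with KB02, on the log2 scale. Of 20 markers of other cell types 11 passed the filter, and their summed level ran from 76.8 to 95.2 CPM with KB05, 92.0 to 108 CPM with KB02 and 69.6 to 102 CPM with DMSO. KB05 called COL1A1, a fibroblast collagen, higher by 0.45, and KB02 called 3 higher. CD14, a monocyte marker, had 0.397 ± 0.269 CPM with KB05, 8.80 ± 2.62 with KB02 and 0.541 ± 0.249 with DMSO, a rise of 4.04 ± 0.36 with KB02. LYZ rose by 0.86 and COL1A1 by 0.65 with KB02. Outside the rule on size, CDH5, an endothelial marker, was at 0 in all 9 libraries. The part of these markers in the histone results was not tested.

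By level across the 9 libraries, the 5 genes outside the list whose log2 CPM was most like the log2 sum of the histone genes were NR4A1 (Pearson r = 0.999), HEY1 (0.997), CCN1 (0.995), RHOH (0.993) and CXCL3 (0.992). NR4A1, an immediate-early nuclear receptor, had 550 ± 55.1 CPM with KB05, 55.1 ± 3.16 with KB02 and 37.9 ± 3.15 with DMSO. These values describe likeness over 3 groups and carry no test.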

How the data were processed

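The authors deposited estimated counts per gene (expected counts, unscaled). The submitters' processing notes name Salmon 1.3.0, DESeq2 1.30.1 and hg38, and no annotation release. Salmon divides reads of near-identical genes by a likelihood model. Of 60232 identifiers, 41714 matched a symbol. In each library 20.3% to 24.3% of entries were not whole numbers (tolerance 1e-06), and all were rounded.

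Counts were tested in R 4.3.3 with edgeR 4.0.16 (filterByExpr, minimum count 10; 18379 genes; TMM; robust quasi-likelihood; all 9 libraries, no block). P-values were adjusted by Benjamini-Hochberg across the 18379 genes, and 0.05 was the threshold. SE is the log2 fold change divided by the square root of F. The script was tested on simulated data. Alternatives were DESeq2 1.42.0, other scalings, no filter, the compared groups alone, a replicate block, summed identical proteins and left-out libraries. Replicates differed by a chi-square per degree of freedom of 4.56 to 10.9, so each was counted. Floors cover counting error only.

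The histone genes and all other lists were chosen with earlier results of these data known. Histone genes were named per class: the 2 most abundant, the largest called change in each comparison and all called lower. From other lists, the 2 largest called changes were named. Positions are from GENCODE 29 and RefSeq. The 15 samples at 8 h were not analysed here.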

Additional observations from a re-analysis of the deposited data

How the results depend on the processing

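No called histone gene reversed direction in an alternative, but some ratios of sums for KB02 against DMSO changed side of 1, as given below. Leaving out each library in turn gave 33 to 37 histone genes called higher for KB05 against DMSO, 10 to 15 higher and 2 to 4 lower for KB02 against DMSO, and 32 to 36 higher and 0 to 1 lower for KB05 against KB02; the 1 is H1-3, without KB02 replicate 3 or KB05 replicate 1. Calls held in every alternative that kept the gene as its own row for 30 of 36, 12 of 14 and 29 of 36 genes in these comparisons. With identical proteins summed into 24 units, 19, 5 and 20 were called higher, from fewer units tested. With KB02 the units that hold H2AC17, H2BC6 and H3C6 were not called (edgeR adjusted p = 0.267, 0.358 and 0.0538). Singly these genes were called higher with KB02. Same-numbered libraries correlated at -0.04 to 0.08 and differently numbered ones at -0.07 to 0.04. These ranges overlap, so they neither show nor exclude a pairing by number. A replicate block gave 35 higher for KB05 and 11 higher and 3 lower for KB02 against DMSO, and 35 higher for KB05 against KB02. Scaling by library size only moved the median of all genes to 0.13 for KB02 and the higher share of calls to 63.8% from 49.5% for KB02, and to 37.4% from 54.4% for KB05 against KB02. It moved the KB02 to DMSO ratio of sums to 1.19 (all), 1.26 (H2A), 1.07 (H2B), 1.69 (H3), 1.08 (chromosome 6), 1.20 (1q21) and 1.31 (1q42), so that H2B and chromosome 6 changed side of 1. Chosen after seeing the data, other gene sets gave these KB05 and KB02 ratios to DMSO: 4.69 and 1.79 for H1 without H1-2, 2.62 and 1.06 for H2A without H2AC25, 2.26 and 1.01 with HIST2H2AA3 and HIST2H2AA4, 4.20 and 1.48 for H2B without H2BC12 and H2BC21, 3.11 and 1.21 for H3 without H3C14, 2.25 and 0.954 for 1q21 without H3C14, 5.39 and 1.84 for 1q42 without H2AC25, and, for all genes, 2.75 and 1.04 without H2AC25 and 2.47 and 1.02 with HIST2H2AA3 and HIST2H2AA4. Non-polyadenylated RNAs called with KB02 numbered 2 by library size only, 1 under the block and 0 to 1 with a library left out; with KB05, 3 to 6. The chromosome 6 neighbours called with KB05 numbered 7 to 13 with a library left out. The 1q21 neighbours called with KB02 numbered 3 by library size only, 2 without a filter, 2 under the block and 1 to 2 with a library left out. The cause of these shifts was not tested. Genes under about 3 counts per library were at the limit of depth.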
